A study of Mus musculus with 21 samples.

Results

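The genes described are the mouse UDP-glucuronosyltransferase (Ugt) and sulfotransferase (Sult) genes with the enzymes that make their co-substrates. They were taken by symbol: every row of the deposited table that begins with Ugt or Sult followed by a digit, without Sult2a1 and Sult2a2, together with Ugdh, Ugp2, Papss1 and Papss2. The rule found 41 genes of 22520. Of these, 8 were Ugt1a genes, 10 Ugt2a or Ugt2b genes, 3 Ugt3a or Ugt8 genes, 6 Sult1 genes, 10 Sult2 to Sult6 genes and 4 co-substrate enzymes.

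Liver RNA was sequenced from 4 genotypes on a mixed 129SV::FVB/N::C57BL/6 background. WT animals were Ezh2fl/fl with no Cre, and E1KO animals were Ezh1-/-. E2KO animals were Ezh2fl/flAlb-Cre, and DKO animals were Ezh1-/-Ezh2fl/flAlb-Cre. Ezh1 and Ezh2 are the alternative methyltransferases of Polycomb repressive complex PRC2, which places H3K27me3, a mark of silenced genes. Each genotype was sampled at 2 and at 8 months of age without treatment and, injected with CCl4, at 3 months of age. CCl4 is carbon tetrachloride, a toxin that hepatocytes activate. There were thus 12 groups. The albumin promoter drives Cre in cells of the hepatocyte lineage. The other liver cells of E2KO and DKO animals therefore kept Ezh2, while Ezh1 was absent from every cell of E1KO and DKO animals. The CCl4 animals were a month older than the 2-month animals, and no untreated 3-month RNA group was used, so age and treatment cannot be told apart in that comparison.

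Both enzyme families attach a polar group to a lipophilic compound so that it can be excreted in bile or urine. A Ugt enzyme sits in the endoplasmic reticulum and transfers glucuronic acid from UDP-glucuronic acid to bilirubin, steroids, bile acids and drugs. A Sult enzyme works in the cytosol and transfers sulfate from PAPS (3'-phosphoadenosine-5'-phosphosulfate) to phenols, steroids and catecholamines. Liver expresses many members of both families, and several mouse liver genes of the Sult2a group and Sult1e1 are known for differing between the sexes. The sex of the animals is not stated in the labels used here. The Ugt1a genes are alternative transcripts of a single locus: each has its own promoter and first exon, and all share the downstream exons.

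The groups used here were measured as FPKM (fragments per kilobase of transcript, corrected for how many fragments of a library were mapped), which is a level per length and can be compared between genes. The table holds 1 value per group, although the sample titles name 3 replicates per group at 2 months and with CCl4 and 2 at 8 months. No spread between animals can be had, and with no counts the depth is unknown. Every test below therefore measures a difference against the departure of the 12 values from additive genotype and condition effects. In bulk liver, fewer cells of a type and less RNA per cell cannot be told apart. Column totals ran from 531760 to 674120 FPKM.

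The labels were checked on the targeted genes. Ezh1 was 2.04 to 2.50 FPKM in the WT and E2KO columns without treatment, and 0.06 to 0.07 in the E1KO column at 2 months and in both untreated DKO columns. With CCl4 it was 2.05 and 1.96 in WT and E2KO, against 0.20 in E1KO and 0.27 in DKO. The column labelled E1KO at 8 months was at 0.88, which was 43.1% of its WT column, and its 6 skeletal muscle markers summed to 302 FPKM against 0.93 to 1.66 in the other 11 columns. Results on the members that changed without that column are named below. Calls on other genes were not checked without it. Ezh2 was at 0.74 to 1.27 FPKM in the untreated columns of all genotypes, so its level there separates the genotypes little. The 10 hepatocyte markers, which include Cps1 and Arg1, summed to 12857 to 17655 FPKM in the 8 untreated columns and to 4240 to 9042 in the 4 CCl4 columns.

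Promoter sequences are shown for the Ugt1a genes with the most different behaviour and for the Sult2a genes seen almost only in DKO columns. They come from RefSeq on GRCm38.p6, whereas the deposited table was made on mm9, and a window was found for 37 of the 41 genes. Each is the 250 bases before the annotated start, written 5′ to 3′ on the strand of the gene. Ugt1a9 covers chr1:88070529-88070778, Ugt1a10 chr1:88055161-88055410 and Ugt1a1 chr1:88211709-88211958, all on the plus strand. Sult2a5 covers chr7:13623717-13623966 on the plus strand, and Sult2a4 chr7:13989589-13989838 and Sult2a6 chr7:14254871-14255120 on the minus strand. Capitals mark the letters GTTAATNATT or their reverse complement, a run shared between these windows.
Ugt1a9: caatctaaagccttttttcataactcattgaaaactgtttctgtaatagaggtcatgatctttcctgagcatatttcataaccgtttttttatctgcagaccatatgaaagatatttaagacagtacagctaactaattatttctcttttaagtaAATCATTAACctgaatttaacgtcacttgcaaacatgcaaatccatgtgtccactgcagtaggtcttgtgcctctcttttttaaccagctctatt
Ugt1a10: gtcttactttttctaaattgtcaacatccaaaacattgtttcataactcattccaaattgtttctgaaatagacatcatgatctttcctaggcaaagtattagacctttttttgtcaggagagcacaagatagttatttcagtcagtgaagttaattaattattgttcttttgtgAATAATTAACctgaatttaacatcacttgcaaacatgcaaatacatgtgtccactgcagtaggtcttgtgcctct
Ugt1a1: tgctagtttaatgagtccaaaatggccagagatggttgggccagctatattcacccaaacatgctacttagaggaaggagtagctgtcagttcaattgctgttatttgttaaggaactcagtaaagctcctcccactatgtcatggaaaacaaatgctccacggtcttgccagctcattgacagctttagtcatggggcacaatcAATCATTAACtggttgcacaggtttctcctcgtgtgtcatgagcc
Sult2a4: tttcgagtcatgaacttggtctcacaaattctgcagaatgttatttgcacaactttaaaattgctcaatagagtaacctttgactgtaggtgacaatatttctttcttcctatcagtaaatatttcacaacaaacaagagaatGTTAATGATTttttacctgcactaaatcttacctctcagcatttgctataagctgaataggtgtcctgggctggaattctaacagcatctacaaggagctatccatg
Sult2a5: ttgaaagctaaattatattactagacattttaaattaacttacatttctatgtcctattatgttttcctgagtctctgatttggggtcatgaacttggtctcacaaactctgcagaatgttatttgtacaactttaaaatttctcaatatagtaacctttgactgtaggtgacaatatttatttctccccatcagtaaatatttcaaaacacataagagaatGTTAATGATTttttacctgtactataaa
Sult2a6: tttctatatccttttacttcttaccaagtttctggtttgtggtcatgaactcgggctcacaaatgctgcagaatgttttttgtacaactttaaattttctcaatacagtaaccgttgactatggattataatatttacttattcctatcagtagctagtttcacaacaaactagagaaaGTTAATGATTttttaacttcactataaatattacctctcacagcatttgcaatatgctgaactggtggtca

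The windows of Ugt1a9 and Ugt1a10 are related. Aligned end to end they were 69.2% identical and shared a run of 32 bases, whereas Ugt1a9 and Ugt1a1 were 49.7% identical. The capital letters end 86 bases before the start in Ugt1a9, 66 in Ugt1a10 and 36 in Ugt1a1. In the Sult2a windows they end 98, 19 and 62 bases before the start in Sult2a4, Sult2a5 and Sult2a6. Searched on both strands, GTTAATNATT was in 8 of the 37 windows (21.6%): those of Sult1d1, Sult2a3, Sult2a4, Sult2a5, Sult2a6, Ugt1a1, Ugt1a9 and Ugt1a10. It was in 0.371% of all 32851 mouse promoter windows and in 0.498% of the 8035 windows of tested genes matched by symbol. The letters are the first 10 bases of the longest run shared by the Sult2a4 and Sult2a6 windows, with the seventh left free. They were the only motif searched, they were chosen with the sequences in view, and the Sult2a windows are close paralogs, so the matches are a description. The match is present both in genes that were lower in DKO and in genes that were higher.

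In annotation order, the 8 Ugt1a genes lie together on chromosome 1. All 10 Ugt2a and Ugt2b genes are neighbours on chromosome 5, followed directly by Sult1b1, Sult1d1 and Sult1e1. Sult2a3 to Sult2a7 lie in a cluster on chromosome 7 that also holds Sult2a1 and Sult2a2. The sources used here do not say how reads that fit several near-identical genes were assigned. Values within the Sult2a group, the Ugt2b group, and the Ugt1a genes with their shared exons, are therefore uncertain as to the member.

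Levels differed widely among members. Of the 41 genes, 30 reached 1 FPKM in at least 2 columns and were tested, and 27 did so when the DKO columns were left out of the filter. The 3 others, Sult2a4, Sult2a5 and Sult2a6, passed only through DKO columns, and their differences from WT are description only. The other 11 genes ranged from 0 to 1.13 FPKM. Sult1c1 was listed at 0 in every column. Sult2b1, a cholesterol sulfotransferase, Sult4a1, Sult6b1, Ugt1a2, Ugt2a1, Ugt2a2 and Ugt8a, which makes galactosylceramide in myelin, did not reach 0.5 FPKM anywhere. Ugt1a7c was at 0.54 to 1.13 with CCl4 and at 0.03 to 0.38 elsewhere. Sult3a1 reached 1.07 in the 2-month DKO column and at most 0.14 in the others.

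**Figure D1:**
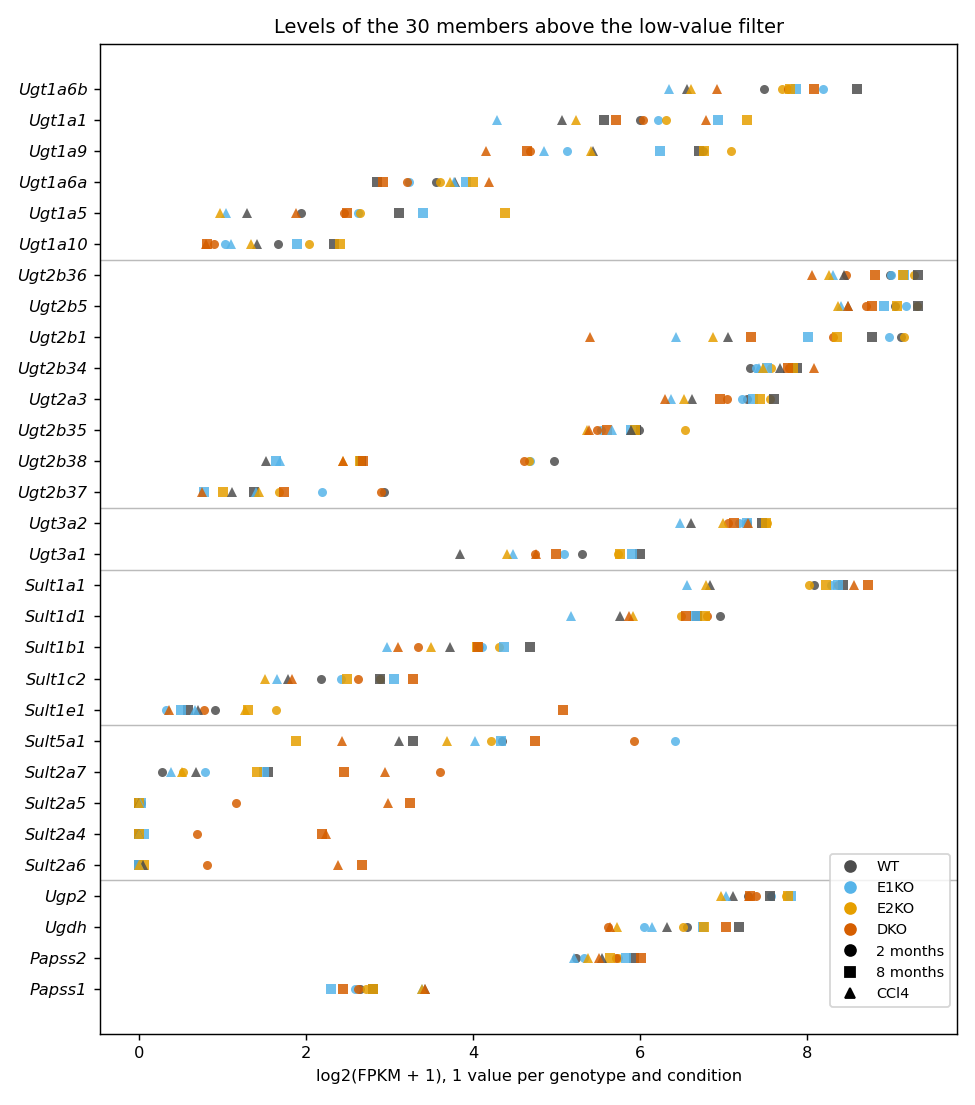
Each row is 1 of the 30 tested genes and each point its log2(FPKM + 1) in 1 of the 12 columns, coloured by genotype, with circles for 2 months, squares for 8 months and triangles for CCl4. Ugt2b5, Ugt2b36, Ugt2b1 and Sult1a1 lie at the right, and the Sult2a genes lie near 0 except in the DKO columns.

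The Ugt2a and Ugt2b genes made up 70.1% to 80.6% of the summed Ugt level in every column, Ugt1a 10.98% to 19.6% and Ugt3a 6.89% to 12.1%. The sum over all 21 Ugt genes was 2565, 2576, 2996 and 1987 FPKM at 2 months in WT, E1KO, E2KO and DKO. At 8 months it was 3006, 2384, 2656 and 1968, and with CCl4 it was 1493, 1297, 1401 and 1508. The DKO sum was thus the lowest of the 4 genotypes at both ages without treatment, at 77.4% of WT in the younger and 65.5% in the older animals. In treated animals it was 101% of WT. The sums have no replicate, and the order of DKO and WT at 2 and 8 months was the same when columns were scaled to an equal upper quartile (79.5% and 70.6%).

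**Figure D2:**
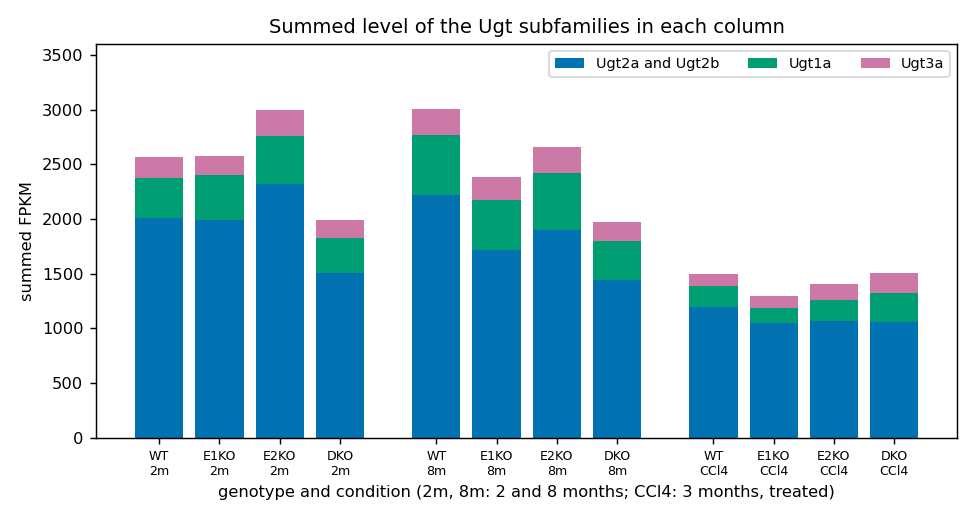
Stacked bars give the summed FPKM of the Ugt2a and Ugt2b genes, the Ugt1a genes and the Ugt3a genes in each of the 12 columns, 1 value per bar. The DKO bar is the lowest at 2 and at 8 months, and the 4 CCl4 bars lie between 1297 and 1508.

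The question of the DKO comparison is what the joint loss of Ezh1 and hepatocyte Ezh2 does to these genes. Ugt1a9, Ugt1a10 and Ugt2b1 were lower and 4 Sult2a genes were higher in DKO than in WT. With limma and Benjamini-Hochberg adjustment over all 11394 tested genes, 3 of the 30 members were called lower, against 0.816% of all tested genes. For the higher direction, 4 members were called, against 1.81% of all tested genes. The median fitted difference was 0.04 on the log2 scale over the 30 members and -0.05 over all tested genes. Counting both directions, 2.62% of all tested genes were called. Since 3 of the 4 higher genes had passed the filter only through DKO columns, their count supports nothing. With the filter set on the other 9 columns, an alternative added after the values were seen, 27 members were tested, Sult2a7 was called higher, and Ugt1a9 and Ugt2b1 lower.

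Ugt1a9, which conjugates phenolic drugs and fatty acids, had the most negative fitted difference of any tested member. In the order WT, E1KO, E2KO and DKO, it was 107, 33.8, 135 and 24.7 FPKM at 2 months, 103, 74.2, 108 and 24.0 at 8 months, and 42.2, 27.7, 41.6 and 16.9 after CCl4. The 3 DKO values lay below the other 9, and E1KO was the next lowest genotype in every condition. The DKO level was 23.2%, 23.3% and 39.9% of WT in the 3 conditions. The fitted difference was -1.80 on the log2 scale (SE 0.29, limma adjusted p = 0.0223). Of the summed Ugt1a level at 2 months it held 29.4% in WT, 8.20% in E1KO and 7.70% in DKO. In the older animals of these genotypes the shares were 18.6%, 16.3% and 6.73%, and with CCl4 22.9%, 19.5% and 6.29%, so the E1KO share was near that of DKO only at 2 months. Ugt1a6b, which held between 42.3% and 75.4% of the Ugt1a level over the 12 columns, had no called difference of its own (0.04, adjusted p = 0.949).

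Ugt1a10, a low-abundance neighbour of Ugt1a9, followed the same order. It was 2.18, 1.04, 3.09 and 0.86 FPKM at 2 months, 4.05, 2.71, 4.29 and 0.76 at 8 months, and 1.67, 1.14, 1.54 and 0.74 after CCl4. Again the 3 DKO values lay below the other 9, a pattern that held for 2 members and 1.02% of all tested genes. The fitted difference was -0.97 (SE 0.21, adjusted p = 0.0491). Without the 8-month E1KO column the adjusted p was 0.0669, and it passed the threshold under 2 of 11 alternatives.

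Ugt2b1, a steroid and drug conjugating enzyme, was among the most abundant members in young WT liver. It was 558, 505, 570.1 and 316 FPKM at 2 months, 436, 256, 327 and 159 at 8 months, and 131, 85.3, 116 and 41.2 after CCl4. DKO was the lowest genotype in each condition, and with CCl4 it stood at 31.3% of WT. The fitted difference was -1.31 (SE 0.16, limma adjusted p = 0.0106). Other abundant Ugt2 genes were not called. Ugt2b36 gave -0.48 (SE 0.13, adjusted p = 0.109), Ugt2a3 -0.40 (SE 0.12, adjusted p = 0.118) and Ugt2b5 -0.30 (SE 0.16, adjusted p = 0.360).

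The calls on these 3 genes rest on several conditions. Ugt1a9 and Ugt2b1 each stayed past the threshold under 7 of 11 alternatives, with adjusted p up to 0.173 and 0.158, and none of the 3 changed direction. With the CCl4 columns left out no member was called by limma (12 at an unadjusted p under 0.05).

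Loss of Ezh1 alone left no member past the threshold against WT (limma, background 0.0176%). An unadjusted p under 0.05 was found for 2 members, Ugt1a9 (-0.90, SE 0.29) and Ugt2b1 (-0.51, SE 0.16), and for 640 of the 11394 tested genes. Loss of hepatocyte Ezh2 alone likewise called no member (background 0.0%), and 0 members and 155 of all tested genes had an unadjusted p under 0.05. The departure of DKO from the sum of both single losses called 0 members too (background 0.0351%). There 6 members and 776 of all tested genes had an unadjusted p under 0.05. For Ugt1a9 that departure was -1.03 (SE 0.41, adjusted p = 0.678).

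A further contrast was added after the values were seen: the average of E1KO and DKO against the average of WT and E2KO. It called 3 members lower, against 0.737% of all tested genes, and 0 higher, against 1.18% (1.92% in either direction). Ugt1a9 fell by 1.41 on the log2 scale (SE 0.21, limma adjusted p = 0.0217). Ugt2b1 fell by 0.81 (SE 0.12, adjusted p = 0.0209), and Ugt1a10 fell by 0.78 (SE 0.15, adjusted p = 0.0429, and 0.0536 without the 8-month E1KO column). Without the 8-month or the CCl4 columns this contrast called 0 members by limma (11 and 12 at an unadjusted p under 0.05), and without the 2-month columns the 3 called were Sult2a4, Sult2a5 and Sult2a6, all higher. These 3 passed the filter only through DKO columns and were at 0.04 FPKM or below in E1KO. Their calls therefore say nothing about a difference shared by E1KO and DKO. Both Ezh1-/- genotypes lay below both Ezh1-intact genotypes in all 3 conditions for Ugt1a9, Ugt1a10, Ugt2b1 and Ugt2a3. That order held for 3.91% of all tested genes. No member had the opposite order, which 2.56% of all tested genes had.

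Sult5a1 came nearest to the opposite order. It was 19.3, 84.2, 17.5 and 59.7 FPKM at 2 months, 8.74, 19.1, 2.69 and 25.8 at 8 months, and 7.67, 15.2, 11.9 and 4.40 after CCl4. Both Ezh1-/- genotypes exceeded WT and E2KO at 2 and 8 months, but with CCl4 DKO was the lowest. The average of E1KO and DKO differed from that of WT and E2KO by 1.22 (SE 0.44, limma adjusted p = 0.163), and the difference was not called.

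The Sult2a genes were the members that appeared in DKO liver. Enzymes of this group sulfate hydroxysteroids and bile acids. In the order WT, E1KO, E2KO and DKO, Sult2a5 was 0.02, 0, 0 and 1.23 FPKM at 2 months, 0, 0.02, 0 and 8.44 at 8 months, and 0, 0.01, 0 and 6.90 after CCl4. Sult2a4 was 0, 0, 0 and 0.62 FPKM at 2 months, 0, 0.04, 0 and 3.57 at 8 months, and 0, 0, 0 and 3.70 after CCl4. Sult2a6 was 0, 0, 0 and 0.76 FPKM at 2 months, 0, 0, 0.04 and 5.36 at 8 months, and 0.03, 0, 0 and 4.20 after CCl4. All 9 columns of the other genotypes were at 0.04 or below for the 3 genes, whereas their DKO values were 0.62 to 1.23 at 2 months and 3.57 to 8.44 in the later groups. The fitted differences of DKO from WT were 2.45 for Sult2a5, 1.71 for Sult2a4 and 1.94 for Sult2a6 on the log2(FPKM+1) scale. With the WT values at or near 0 no fold is given. Sult2a3, too low to be tested, stood at 0.06, 0.46 and 0.87 FPKM in the DKO columns, in the same order of conditions, and at 0.03 or below elsewhere.

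Sult2a7 differed from these neighbours in being detected in every genotype. It was 0.21, 0.73, 0.44 and 11.2 FPKM at 2 months, 1.91, 1.82, 1.66 and 4.48 at 8 months, and 0.60, 0.30, 0.43 and 6.71 after CCl4. All 3 DKO values exceeded the other 9, and the DKO level was highest at 2 months, where the other Sult2a genes were lowest. The fitted difference of DKO from WT was 2.17 (SE 0.39, limma adjusted p = 0.0314). It passed the threshold under 8 of 11 alternatives, with adjusted p up to 0.271. The DKO difference at 8 months minus that at 2 months was -2.11 (adjusted p = 0.0871), which was not called. All 3 DKO values lay above the other 9 for Sult2a4, Sult2a5, Sult2a6 and Sult2a7, and for 1.25% of all tested genes. Sult2a4, Sult2a5 and Sult2a6 passed the filter only through DKO columns, so their place in this pattern supports nothing. In the DKO columns the hepatocyte markers summed to 14899 FPKM in the young, 12857 in the older and 9042 in the treated animals. Without the marker Cyp2e1 these sums were 10140, 9079 and 5186 FPKM. The part of hepatocytes in the Sult2a values was not tested.

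Sult1e1, the oestrogen sulfotransferase, stood apart in a single column. It was 0.88, 0.25, 2.12 and 0.72 FPKM at 2 months, 0.50, 0.42, 1.48 and 32.8 at 8 months, and 0.63, 0.59, 1.41 and 0.28 after CCl4. The DKO value at 8 months was the only one above 2.12 FPKM. The DKO difference at 8 months exceeded that at 2 months by 4.45 on the log2 scale (SE 0.29, limma adjusted p = 0.00256). This fit compares DKO with the average of the other genotypes, and its spread comes from WT, E1KO and E2KO columns, all at 2.12 FPKM or below. With a pseudocount of 0.1 the adjusted p was 0.0872. In this interaction 4 members were called higher, against 0.184% of all tested genes, and 0 lower, against 0.0614%. The other 3 called were Sult2a4, Sult2a5 and Sult2a6, which passed the filter only through DKO columns, so their count supports nothing. With the filter set on the other 9 columns, Sult1e1 was the 1 member called. The 8-month DKO column also had the highest cholangiocyte marker sum of its age, at 304 FPKM against 28.8 to 44.0, and Spp1 made up 290 of it. In the CCl4 columns the same sum was 319 to 698 FPKM, of which Spp1 made up 311 to 684, and Sult1e1 was at 0.28 to 1.41. Single markers differed from the sum. Epcam was 3.83 FPKM in the 8-month DKO column and 0.35 to 0.87 in all others. Krt7 was 1.68 FPKM in that column and 1.34 to 1.65 with CCl4. Krt19, Sox9, Spp1 and Cldn7 were each higher in a CCl4 column than in the 8-month DKO column. The part of cholangiocytes in the Sult1e1 value was not tested.

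**Figure D3:**
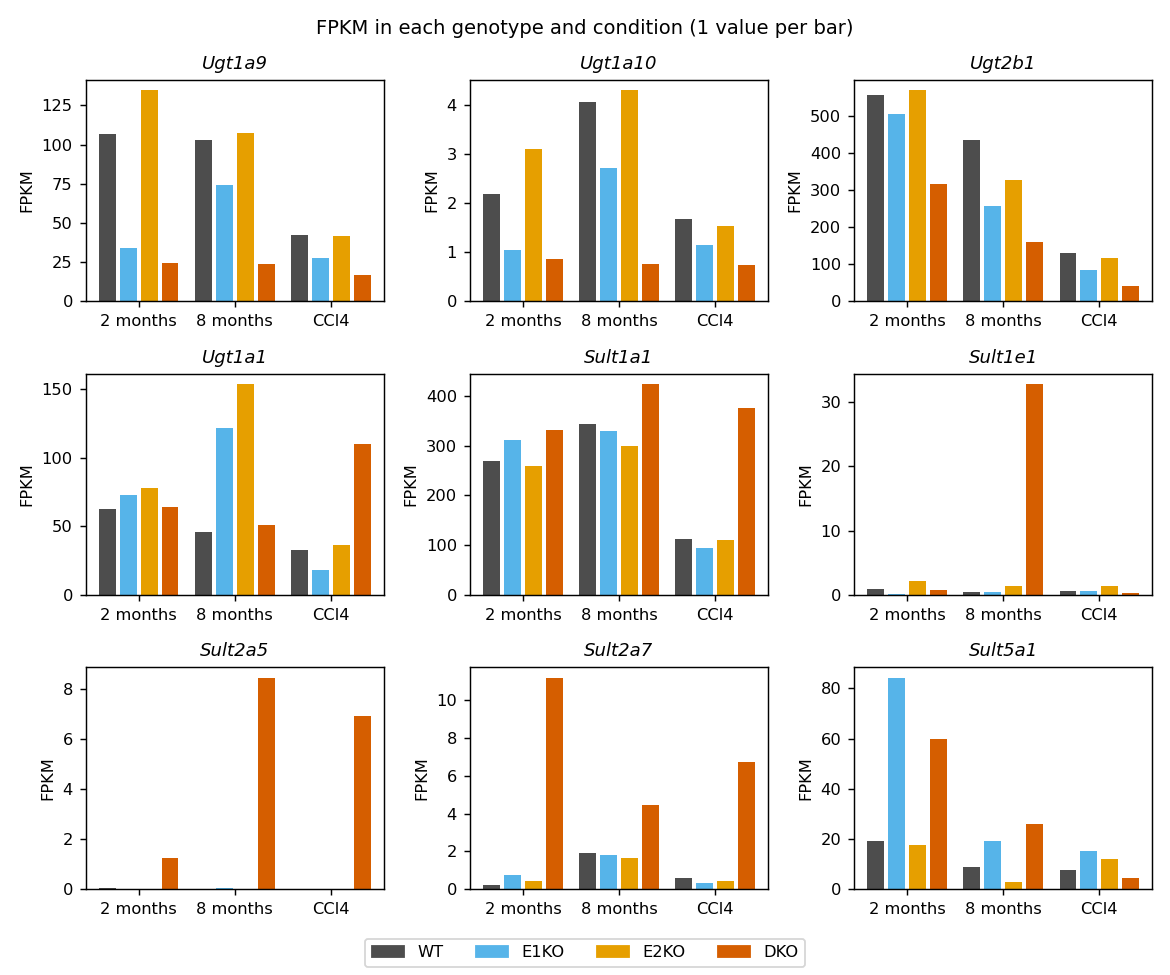
Bars give the FPKM of 9 genes, picked after their values were seen, in WT, E1KO, E2KO and DKO at 2 months, 8 months and with CCl4, 1 value per bar and each panel on its own axis from 0. Ugt1a9, Ugt1a10 and Ugt2b1 are lowest in DKO in every condition, Sult2a5 and Sult2a7 are highest there, and Sult1e1 is above 2.12 FPKM only in the 8-month DKO column.

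Counted condition by condition with no test, the DKO column differed from WT by at least 1 on the log2(FPKM+1) scale for a changing set of members. At 2 months 3 members were higher by this rule and 1 was lower, against 1.99% and 1.48% of all tested genes. At 8 months 5 were higher and 4 lower (2.86% and 1.22%), and with CCl4 6 were higher and 2 lower (2.93% and 2.47%). The higher counts include Sult2a genes that passed the filter only through DKO columns. Ugt1a9 was past the rule in all 3 conditions. Ugt2b1 was past it at 8 months and with CCl4, and Ugt3a1 only at 8 months, at 30.8 FPKM in DKO and 63.0 in WT. The Ugt3a1 difference was -1.01, and with columns scaled to an equal upper quartile this gene was not past the rule. Sult1a1 and Ugt1a1 were past it only with CCl4, where they were higher.

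Most tested members were lower with CCl4. The comparison with 2 months asks what toxic injury does to these genes across the 4 genotypes. By limma with adjustment over all tested genes, 16 of 30 members were lower (53.3%), against 24.5% of all tested genes, and 1 was higher, against 33.4% (57.9% in either direction). The median fitted difference was -0.63 over the members and 0.07 over all tested genes. The hepatocyte markers moved the same way: 8 of the 10 were called lower, with a median of -1.37. Stellate cell, macrophage, endothelial and cholangiocyte markers rose, with 6 of 6, 5 of 6, 5 of 5 and 4 of 5 tested markers called higher. The part of this shift in the members' values was not tested. Of the 17 calls, 9 (Papss1, Sult1c2, Sult1d1, Ugt1a6b, Ugt2a3, Ugt2b1, Ugt2b36, Ugt2b38 and Ugt2b5) held under all 10 alternatives, and the others missed the threshold under at least 1. The adjusted p reached 0.218 for Ugp2, 0.133 for Ugt1a5, 0.131 for Ugt3a1 and 0.0886 for Sult1a1.

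**Figure D4:**
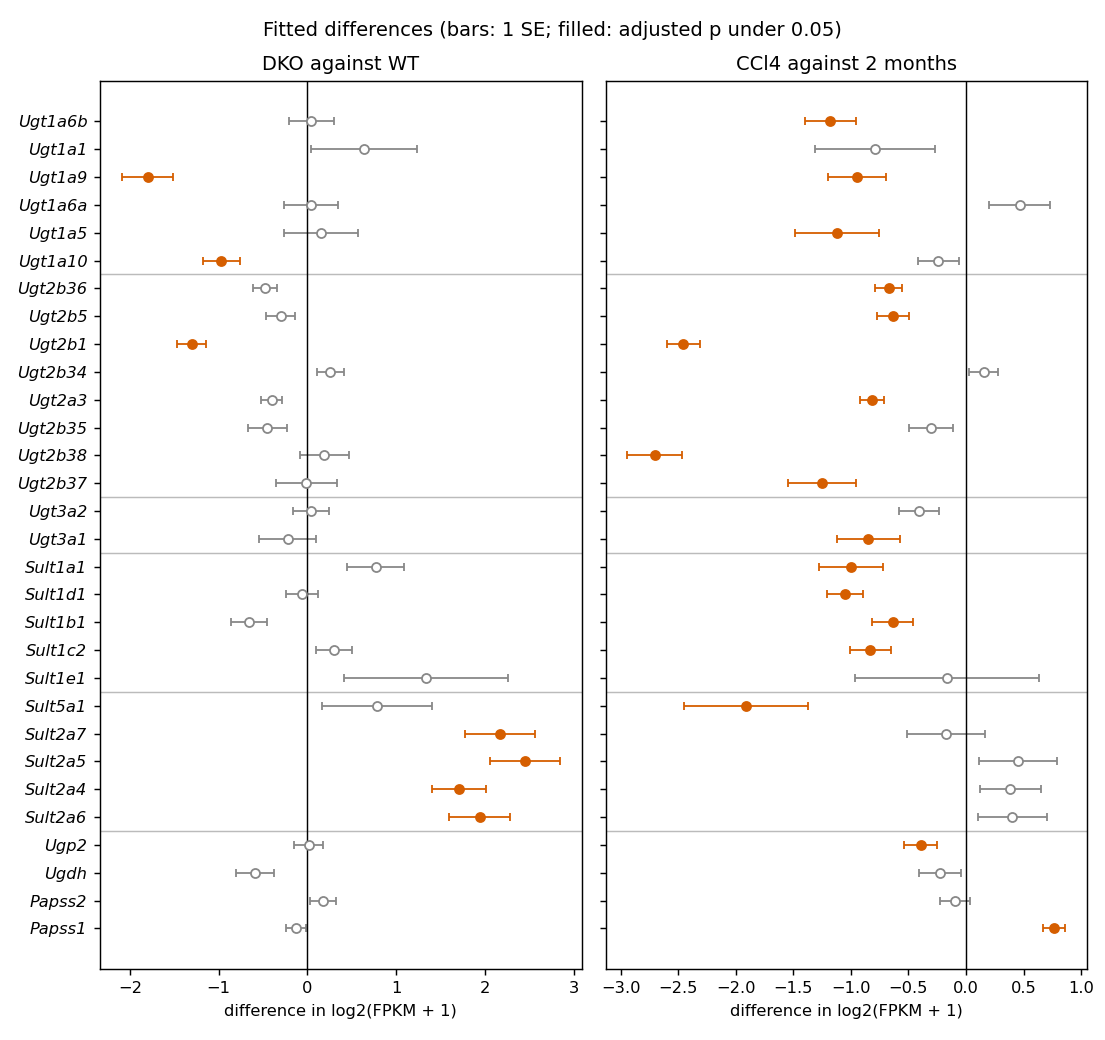
Points are fitted differences in log2(FPKM + 1) for the 30 tested genes, with bars of 1 SE from the additive fit, for DKO against WT (left) and CCl4 against 2 months (right), filled where the adjusted p is under 0.05. The CCl4 points lie mostly left of 0, from -2.71 for Ugt2b38 to 0.76 for Papss1, while the DKO points lie on both sides.

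Among Ugt2 genes, 6 of 8 tested fell with CCl4. Ugt2b38 was 30.3, 24.6, 24.3 and 23.4 FPKM at 2 months, 5.33, 2.12, 5.24 and 5.42 at 8 months, and 1.88, 2.21, 4.44 and 4.43 after CCl4. It was low both with CCl4 and at 8 months in every genotype, and only the 2-month columns were above 6 FPKM. The fitted difference was -2.71 with CCl4 (SE 0.24, adjusted p = 5.79e-05) and -2.32 at 8 months (SE 0.24, adjusted p = 0.00286). Ugt2b37 was 6.62, 3.58, 2.19 and 6.46 FPKM at 2 months, 1.60, 0.71, 1.00 and 2.33 at 8 months, and 1.17, 1.63, 1.71 and 0.68 after CCl4, and it fell by 1.25 with CCl4 (adjusted p = 0.00664) and differed by -1.20 at 8 months (adjusted p = 0.0602). Ugt2b1 fell by 2.46 with CCl4 (SE 0.14, adjusted p = 1.5e-05), to 23.5% of the 2-month level in WT and 13.0% in DKO. It also fell by 0.78 at 8 months (SE 0.14, adjusted p = 0.0256, and 0.0903 without the 8-month E1KO column).

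The 3 remaining Ugt2 genes that fell were abundant. Ugt2b5 was 531, 582, 638 and 417 FPKM at 2 months, 644, 484, 540.4 and 438 at 8 months, and 358, 337, 329.7 and 358 after CCl4. Ugt2b36 was 509.7, 511, 622 and 353 FPKM at 2 months, 642, 569, 568 and 448 at 8 months, and 346, 317, 305 and 264 after CCl4. Ugt2a3 was 154, 148, 187 and 130.3 FPKM at 2 months, 193, 162, 172 and 123 at 8 months, and 97.8, 81.7, 91.3 and 77.8 after CCl4. For each of them all 4 CCl4 values lay below the other 8, and the falls were 0.63, 0.67 and 0.82 on the log2 scale (adjusted p = 0.00464, 0.00132 and 0.000245). Ugt2b34 and Ugt2b35 did not pass the test. Ugt2b34 was at 171 to 270.1 FPKM with CCl4 and 158 to 234 elsewhere, with a fitted difference of 0.15 (SE 0.13). Since Ugt2b1 fell further than Ugt2b5 and Ugt2b36, its share of the Ugt2 level went from 27.8% in WT at 2 months to 10.97% with CCl4, and in DKO from 20.9% to 3.89%.

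In the Ugt1a locus 3 of 6 tested genes fell with CCl4. Ugt1a6b, a phenol-conjugating enzyme and the most abundant Ugt1a entry by median, was 177, 291, 207 and 218 FPKM at 2 months, 387, 232, 220.2 and 269 at 8 months, and 93.5, 80.3, 96.6 and 119.7 after CCl4. All CCl4 values were below all others, and the difference was -1.18 (SE 0.22, limma adjusted p = 0.00195). Ugt1a5 was 2.85, 5.14, 5.28 and 4.48 FPKM at 2 months, 7.65, 9.58, 19.8 and 4.60 at 8 months, and 1.45, 1.06, 0.96 and 2.68 after CCl4, with a difference of -1.12 (adjusted p = 0.0265). Ugt1a9 fell by 0.95 (SE 0.25, adjusted p = 0.0111). Ugt1a6a was not called (0.47, SE 0.26, adjusted p = 0.158) and ranged from 6.19 to 17.2 FPKM.

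Ugt1a1, the bilirubin-conjugating enzyme, had no called difference in the main fits. With the DKO columns left out it was called lower with CCl4. It was 62.9, 73.1, 78.0 and 64.4 FPKM at 2 months, 46.3, 122, 154 and 51.4 at 8 months, and 32.5, 18.5, 36.7 and 109.8 after CCl4. With CCl4 the DKO value was the highest of the 4 genotypes, at 338% of WT, and at 8 months E1KO and E2KO exceeded both WT and DKO. The DKO difference with CCl4 exceeded that at 2 months by 2.07 (SE 0.76, limma adjusted p = 0.473), which did not pass. Ugt1a9 had its lowest value of all, 16.9 FPKM, in the same DKO CCl4 column.

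The Ugt3a genes, which use sugar donors other than UDP-glucuronic acid, gave 1 call. Ugt3a1 was 38.6, 33.1, 52.1 and 25.7 FPKM at 2 months, 63.0, 58.6, 53.2 and 30.8 at 8 months, and 13.3, 21.3, 20.2 and 25.9 after CCl4, and it fell by 0.85 with CCl4 (SE 0.27, adjusted p = 0.0264). Ugt3a2 was 154, 144, 182 and 131 FPKM at 2 months, 174, 155, 181 and 138 at 8 months, and 96.4, 87.9, 127 and 156 after CCl4. Its difference was -0.41 (adjusted p = 0.0702) and was not called. Without the DKO columns, or with columns scaled to an equal upper quartile, Ugt3a2 was called lower.

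Of the 5 tested Sult1 genes, 4 fell with CCl4. Sult1a1, a phenol sulfotransferase and the most abundant sulfotransferase among the members, was 269.9, 311, 259 and 330.4 FPKM at 2 months, 344, 329, 299 and 423 at 8 months, and 114, 93.7, 109.9 and 376 after CCl4. WT, E1KO and E2KO with CCl4 were far below every other value, whereas the DKO CCl4 value was above the WT values of all 3 conditions. It stood at 114% of the 2-month DKO level, while WT with CCl4 stood at 42.1% of the 2-month WT level. Fitted over all genotypes the difference with CCl4 was -1.001 (SE 0.28, limma adjusted p = 0.0137). The DKO difference with CCl4 exceeded that at 2 months by 1.58 (SE 0.27, adjusted p = 0.140), which did not pass the threshold. The hepatocyte markers in the same CCl4 columns summed to 4745 FPKM in WT, 4544 in E1KO, 4240 in E2KO and 9042 in DKO, and their part in the Sult1a1 and Ugt1a1 values was not tested. Most of the DKO excess in that sum came from Cyp2e1, the enzyme that activates CCl4, at 3857 FPKM in DKO against 464, 151 and 386 in WT, E1KO and E2KO. Without it the markers summed to 4282, 4393, 3854 and 5186 FPKM in WT, E1KO, E2KO and DKO. Compared with WT in these columns, 8 of the 10 markers were higher in DKO and 2 lower, the latter being Arg1 and Cps1.

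The other Sult1 genes did not share this DKO value. Sult1d1, which sulfates catecholamines, was 124, 102, 88.6 and 110.3 FPKM at 2 months, 101, 99.6, 109 and 92.5 at 8 months, and 53.2, 35.2, 59.1 and 57.5 after CCl4. Sult1b1, which sulfates thyroid hormones and phenols, was 15.8, 16.3, 18.8 and 9.15 FPKM at 2 months, 24.7, 19.6, 15.6 and 15.7 at 8 months, and 12.3, 6.80, 10.2 and 7.58 after CCl4. Sult1c2 was 3.51, 4.34, 6.38 and 5.15 FPKM at 2 months, 6.37, 7.30, 4.64 and 8.71 at 8 months, and 2.44, 2.14, 1.84 and 2.55 after CCl4. For Sult1d1 and Sult1c2 all 4 CCl4 values, DKO included, lay below the other 8. The falls were 1.05 for Sult1d1 (limma adjusted p = 0.000597), 0.63 for Sult1b1 (0.0142) and 0.83 for Sult1c2 (0.00386). Sult5a1 fell by 1.91 with CCl4 (SE 0.54, adjusted p = 0.0146). All 4 CCl4 values lay below the other 8 for 8 members and for 16.9% of all tested genes.

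Among the co-substrate enzymes, Papss1 was the only member that rose with CCl4. Papss1 and Papss2 make PAPS, the sulfate donor. Papss1 was 5.24, 4.98, 5.58 and 5.17 FPKM at 2 months, 5.98, 3.90, 5.97 and 4.42 at 8 months, and 9.71, 9.50, 9.47 and 9.72 after CCl4. The 4 CCl4 values lay between 9.47 and 9.72 FPKM, the other 8 between 3.90 and 5.98, and the difference was 0.76 (SE 0.10, limma adjusted p = 0.000277). All 4 CCl4 values lay above the other 8 for this member and for 22.9% of all tested genes. Papss2, the more abundant, was at 36.0 to 63.6 FPKM with no call. Ugp2, which makes UDP-glucose, was 155, 188, 214 and 167 FPKM at 2 months, 188, 223, 218 and 158 at 8 months, and 138, 129.9, 124 and 157 after CCl4. It fell by 0.39 with CCl4 (SE 0.15, adjusted p = 0.0443, and 0.0537 without the 8-month E1KO column). Ugdh, which oxidises UDP-glucose to UDP-glucuronic acid, was 93.7, 64.9, 90.5 and 48.1 FPKM at 2 months, 144, 107, 108 and 129.6 at 8 months, and 79.1, 69.7, 51.9 and 48.9 after CCl4. All 3 knockout genotypes were below WT in every condition, and neither DKO against WT (-0.59, adjusted p = 0.184) nor 8 months against 2 months (0.75, adjusted p = 0.0597) passed.

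Age changed few members. At 8 months against 2 months Ugt2b1 and Ugt2b38 were lower and 0 were higher, against 1.59% and 2.70% of all tested genes. By limma the unadjusted p was under 0.05 for 8 of 30 members and for 2533 of the 11394 tested genes.

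Genes around these pathways were counted from lists written with results of these data known. Among 14 tested genes of co-substrate transport and conjugate turnover, 6 rose and 2 fell with CCl4, where 33.4% of all tested genes rose and 24.5% fell. Gusb, the lysosomal enzyme that removes glucuronic acid, was at 7.51 to 9.68 FPKM untreated and at 19.4 to 23.6 with CCl4. It rose by 1.23 (SE 0.08, adjusted p = 1.83e-05). Uxs1, which converts UDP-glucuronic acid to UDP-xylose, rose by 1.10 (adjusted p = 0.000125), and Impad1, which breaks down the spent sulfate donor in the Golgi, rose by 1.14 (adjusted p = 0.000369). Slc35d2, a nucleotide sugar transporter, fell by 0.92 (adjusted p = 0.000591). None of the 14 was called in DKO against WT (limma, background 2.62%).

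Of 21 tested regulators of conjugation genes, 2 were lower in DKO than in WT and 0 were higher, against 0.816% and 1.81% of all tested genes. Foxa1, a forkhead factor that opens liver chromatin, was 6.88, 4.89, 6.78 and 4.10 FPKM at 2 months, 8.20, 5.0, 8.13 and 4.67 at 8 months, and 7.28, 4.18, 6.87 and 3.13 after CCl4. The DKO and E1KO values lay below the WT and E2KO values in every condition, the order seen for Ugt1a9 and for 3.91% of all tested genes. A link between Foxa1 and Ugt1a9 was not tested. The fitted difference of Foxa1 was -0.78 (SE 0.09, limma adjusted p = 0.00777), and that of Foxa2 was -0.69 (SE 0.14, adjusted p = 0.0478). Foxa2 did not keep that order at 8 months, where DKO was at 11.95 FPKM and E2KO at 11.66. With CCl4 8 regulators fell and 3 rose, beside the same 24.5% and 33.4% of all tested genes. Nr1i3, the receptor CAR that induces Ugt and Sult genes, fell by 1.04 with CCl4 (adjusted p = 0.00732) and was higher by 1.18 at 8 months (adjusted p = 0.0399). Nfe2l2, the oxidative stress factor NRF2, rose by 0.92 with CCl4 (adjusted p = 0.00131).

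Other conjugating enzymes were counted in the same way. Of 15 tested methyl-, acetyl- and amino acid-transferases and their helpers, 10 fell and 1 rose with CCl4, with a median of -0.88, where 24.5% of all tested genes fell and 33.4% rose. Baat, which joins bile acids to taurine, was 164, 144, 169 and 103 FPKM at 2 months, 193, 157, 141 and 106 at 8 months, and 89.6, 77.5, 79.8 and 56.1 after CCl4. It was the only gene of that list called in DKO against WT (-0.73, SE 0.11, limma adjusted p = 0.0174, background 2.62%). Among 15 tested transporters of conjugates, 6 fell and 3 rose with CCl4, against 57.9% of all tested genes called in either direction. In DKO against WT 0 of these transporters were called (background 2.62%). Slco1a1, an uptake transporter of sulfated and glucuronidated steroids, was 149, 148, 136 and 87.0 FPKM at 2 months, 124, 93.3, 110.0 and 1.07 at 8 months, and 52.0, 38.9, 75.3 and 25.7 after CCl4. Its 8-month DKO value was 0.863% of WT, in the column where Sult1e1 was high, and the DKO difference at 8 months was below that at 2 months by a called amount (-5.001, adjusted p = 0.0053). Of 9 tested growth hormone axis genes, 0 were called in DKO against WT (background 2.62%) and 5 fell with CCl4, against 24.5% of all tested genes. Cux2, also on that list, did not pass the filter on low values and is described below.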

How the data were processed

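Per the labels, liver RNA libraries were made with the TruSeq kit, in 12 groups of 4 genotypes and 3 conditions. The authors deposited 1 table of FPKM values, 1 column per group, 22520 genes. The sources used here do not say how replicates became 1 value. Per the submitters' processing notes, CASAVA, TopHat, Cufflinks, BWA, SICER and HOMER and the build mm9 were used in the series, and versions are not given. The 9 ChIP samples are not analysed here. No counts were given, so depth is unknown.

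The 11394 genes that reached 1 FPKM in 2 or more columns were analysed as log2(FPKM + 1) with limma 3.58.1 in R 4.3.3. A pseudocount of 1 understates the change of low genes. The fit had additive genotype and condition terms (eBayes with a trend, 6 residual degrees of freedom). A second fit added DKO-by-condition terms (4 residual degrees of freedom), which set DKO against the average of the other genotypes. Tests were two-sided, with Benjamini-Hochberg adjustment over all tested genes at 0.05. The procedure was tested on simulated data. Promoter windows were aligned globally with Biopython 1.88 (match 1, mismatch -1, gap opening -2, extension -0.5).

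All members are accounted for. Those called in a contrast, and the most abundant of each subfamily, are given with 12 values, and members below the filter by range. The members, lists and rule were chosen with earlier results of these data known. Alternatives covered the pseudocount, filter, scaling, trend and columns left out.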

Additional observations from a re-analysis of the deposited data

Results flagged for a closer look

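By the interaction test of limma, which sets DKO against the other genotypes, 4 members were called at 8 months and 3 with CCl4. Of all tested genes 0.246% and 0.29% were called. Sult1e1 had a DKO difference at 8 months larger than that at 2 months by 4.45 on the log2(FPKM+1) scale. For Sult2a4 the DKO difference was larger at 8 months by 1.48 and with CCl4 by 1.54. For Sult2a5 it was larger by 2.08 and 1.83, and for Sult2a6 by 1.83 and 1.55. The 3 Sult2a genes entered the test only through their DKO columns and were at 0.04 FPKM or below in all the others. Their calls therefore support nothing. Sult1e1 was called without that help, from 1 column at 32.8 FPKM. With the filter set on the other 9 columns it was the 1 member called at 8 months. With CCl4 that filter left 0 members called (5 at an unadjusted p under 0.05). With a pseudocount of 0.1, 0 members were called in either interaction (7 at an unadjusted p under 0.05 in each).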

How the results depend on the processing

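No paired analysis was possible because the table holds 1 column per group, and for the same reason no replicate could be left out. Over the alternatives run, 0 of 36 calls on single genes changed direction, and 71 of 328 comparisons with an alternative fell short of the threshold. The number of members called in DKO against WT, 7, became 4 with a filter on the mean, 3 with a filter on the 9 columns other than DKO (added after the values were seen), 3 without the 2-month columns, 1 without the 8-month columns, and 0 without the CCl4 columns or from the WT and DKO columns alone (12 at an unadjusted p under 0.05 in each). Those 3 without the 2-month columns were Sult2a4, Sult2a5 and Sult2a6, which also gave 3 calls for the departure from additivity in place of 0. They passed the filter only through DKO columns, so these calls support nothing. The CCl4 count of 17 became 11 without the WT or without the E1KO columns. Without the DKO columns it was 19, with Ugt1a1 and Ugt3a2 added as lower. The 8-month count of 2 became 1 without the 8-month E1KO column, the WT columns or the E1KO columns, and Ugt2b38 was the gene left in each. It stayed 2 without the E2KO or the DKO columns, but with a different gene beside Ugt2b38. Ugt2b1 was then not called, and Sult1c2 (no E2KO columns) or Sult2a7 (no DKO columns) was called higher. Ugt2b1 at 8 months passed under 5 of 10 alternatives, with limma adjusted p up to 0.163. For the Ezh1-/- genotypes against the others, the count of 3 became 6 with a pseudocount of 0.1 and 0 without the 8-month or the CCl4 columns (11 and 12 at an unadjusted p under 0.05). Without the 2-month columns it was 3, but these were Sult2a4, Sult2a5 and Sult2a6, all higher, and their calls again came through DKO columns only. The interaction at 8 months, 4, became 0 with a pseudocount of 0.1 (7 at an unadjusted p under 0.05), 2 with a filter on the mean and 1 with the filter on 9 columns. That with CCl4, 3, became 0, 1 and 0 (7 and 5 at an unadjusted p under 0.05 for the zeros) and 6 with no filter. At 2 months the count of DKO differences of at least 1 on the log2 scale, 4, became 7 with a pseudocount of 0.1. The cause was not tested, beyond the loss of columns or genes that an alternative itself brings. Levels near 0 FPKM limit the Sult2a values, since no counts are given.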

Other observations

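Cux2, a transcription factor gene of female-biased liver expression that is known to act on sex-biased genes, stood at 0.95 FPKM in the 2-month DKO column, 0.04 in the 8-month one and 0.63 in the treated one, and at 0.01 to 0.04 in the other 9 columns. It did not pass the filter on low values, was not tested, and was singled out after its values were seen. Sult2a7 and Sult3a1 had their highest values, 11.2 and 1.07 FPKM, in the same 2-month DKO column. Sult2a5, Sult2a6 and Sult1e1 had theirs, 8.44, 5.36 and 32.8 FPKM, in the 8-month DKO column, where Cux2 was at 0.04. Sult2a3 and Sult2a4 had theirs, 0.87 and 3.70 FPKM, in the treated DKO column, where Cux2 was at 0.63. A link between Cux2 and these genes was not tested.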
